A study of Mus musculus with 16 samples.

Results

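The question addressed here is whether removal of miR-206 and miR-1a changed how all other miRNAs responded when C2C12 cells differentiated. C2C12 is a mouse myoblast line whose cells leave the cell cycle and fuse into myotubes when serum is lowered. All 16 small RNA libraries of the study entered the comparison, which took the change from growth medium (GM, with fetal bovine serum) to day 3 of differentiation (DM3, with little horse serum) in cells of either genotype and then the difference of the 2 changes. Control cells, whose genotype is given as wild-type, came as populations 1 and 2. The triple-knockout cells (tKO) came as clones C1 and C2, in which the hairpin of miR-206 and the pair of miR-1a hairpins are knocked out, so each tKO line is 1 clone. Populations and clones are called line 1 and line 2 below. All cells derive from a C2C12 stock that the growth protocol calls PAX7 NEG, and every genotype and medium has 2 biological replicates of each line. The 4 libraries of a group are therefore 2 lines with 2 replicates each, not 4 independent lines. A GM and a DM3 library of the same line and replicate form a pair, which gives 4 control pairs and 4 tKO pairs.

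miRNAs are short RNAs that guide Argonaute proteins to messenger RNAs, mostly through the seed, bases 2 to 8 of the miRNA. miR-1 and miR-206 share their seed and belong to the myomiRs, the muscle miRNAs that MyoD and related factors switch on during differentiation. Each of the deleted hairpins lies beside a miR-133 hairpin in a common primary transcript: miR-206 beside miR-133b, and the miR-1a copies beside the miR-133a copies. miR-133 has a different seed and a different set of targets, so the tKO cells can in principle lose miR-1 and miR-206 and still induce miR-133.

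The sequences below, from RefSeq (GRCm38.p6), are those of the miRNAs on which the results turn, written 5′ to 3′ with the seed in capitals. miR-206-3p (chr1:20679055-20679076, plus strand) carries the seed of the deleted family, and miR-133b-5p (chr1:20682797-20682818, plus strand) comes from the hairpin beside it.

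miR-206-3p: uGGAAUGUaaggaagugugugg

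miR-133b-5p: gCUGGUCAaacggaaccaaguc

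A pair of seed groups recurred among the miRNAs whose estimated response was higher in tKO. miR-16-5p (chr3:69009918-69009939, plus strand, and an identical copy at chr14:61631936-61631957, minus strand) and miR-322-5p (chrX:53054306-53054327, minus strand) share AGCAGCA. miR-103-3p (chr2:131288103-131288125 and chr11:35782447-35782469, both plus strand) and miR-107-3p (chr19:34820700-34820722, minus strand) share GCAGCAU.

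miR-16-5p: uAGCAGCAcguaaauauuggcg

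miR-322-5p: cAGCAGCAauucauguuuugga

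miR-103-3p: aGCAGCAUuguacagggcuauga

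miR-107-3p: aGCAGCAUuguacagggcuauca

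miR-880-3p (chrX:66800540-66800561) and miR-741-3p (chrX:66796809-66796831), both on the minus strand, come from a single X-linked cluster and have different seeds. They are shown because 23 of the 25 tested names of that cluster had a higher estimated response in tKO.

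miR-880-3p: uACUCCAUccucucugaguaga

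miR-741-3p: uGAGAGAUgccauucuauguaga

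miR-744-5p (chr11:65734799-65734820, minus strand), miR-674-3p (chr2:117185186-117185207, plus strand) and miR-423-3p (chr11:77078086-77078108, minus strand) were among the names with the smallest unadjusted p for a lower response in tKO than in control, and they share no seed.

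miR-744-5p: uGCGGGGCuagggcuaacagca

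miR-674-3p: cACAGCUCccaucucagaacaa

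miR-423-3p: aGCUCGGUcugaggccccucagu

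Reads were counted per listed miRNA name from sequences of 18 to 25 nt without a mismatch, which gave 1502 names, of which 503 had enough reads to be tested. The deposited tables held 112792 to 6543570 reads per library, of which 58.6% to 88.7% were counted. The tKO DM3 library of line 1, replicate 1 was the smallest and stood apart: 58.6% of its reads were counted, against 84.2% to 87.0% in the other tKO DM3 libraries, 35.4% carried the names miR-6240 or miR-6236 and 18.9% were under 18 nt. In the control DM3 library of line 1, replicate 2, 17.1% of the reads carried these names, against 4.85% to 5.10% in the other control DM3 libraries. Levels are in CPM, counted reads scaled to a fixed library total with TMM (trimmed mean of M values) factors. In a single library, 3 reads corresponded to 0.546 to 41.0 CPM, and such limits cover counting error only.

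Outside the deleted family, the responses to differentiation had the same direction in control and tKO cells in most cases, and no miRNA passed the test for a difference between them. By edgeR's quasi-likelihood test with Benjamini-Hochberg adjustment, 0 of 503 names (0%) had a different response in tKO. The smallest adjusted p was 0.574. At an unadjusted p under 0.05 there were 33 names (6.56%), 8 with a higher and 25 with a lower response in tKO. With the library pair as a block, edgeR gave 60 such names, and again 0 after adjustment. A DESeq2 Wald test also called 0 names, with 26 at an unadjusted p under 0.05. limma on the pair differences called 1 name, the deleted miR-1a-3p, with 43 at an unadjusted p under 0.05. For 30 names (5.96%) the 4 tKO pair changes did not overlap the 4 control pair changes, 12 with tKO above and 18 below.

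The responses themselves were large. In control cells 158 of 503 names (31.4%) changed from GM to DM3, 78 up and 80 down. In tKO cells 137 (27.2%) changed, 66 up and 71 down. With scaling by total counts the tKO split was 88 up and 56 down, and the median response of all tKO names moved from -0.05 to 0.12 (log2). The median interaction moved from 0.02 to 0.15 in the same step, so single differences are best read against that shift. Both genotypes passed the threshold for 100 names, all of them in the same direction, 45 up and 55 down. Of the 58 names past the threshold in control only, 52 had the same sign in tKO, and of the 37 past it in tKO only, 35 had the same sign in control.

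The names that changed in control had smaller fitted changes in tKO, and the reverse also held. Names that rose in control had a median log2 fold change of 1.65 there and 1.21 in tKO, while names that rose in tKO had a median of 1.55 there and 1.41 in control. Names that fell had medians of -1.59 in control and -1.18 in tKO when chosen in control, and of -1.53 in tKO and -1.42 in control when chosen in tKO. Choosing names in a genotype favours a larger value in that genotype, so these medians are a description. Across the 503 names, the fitted responses had a Pearson r of 0.83 and a Spearman rho of 0.78. Names within a library are not independent, and these values carry no test.

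**Figure D1:**
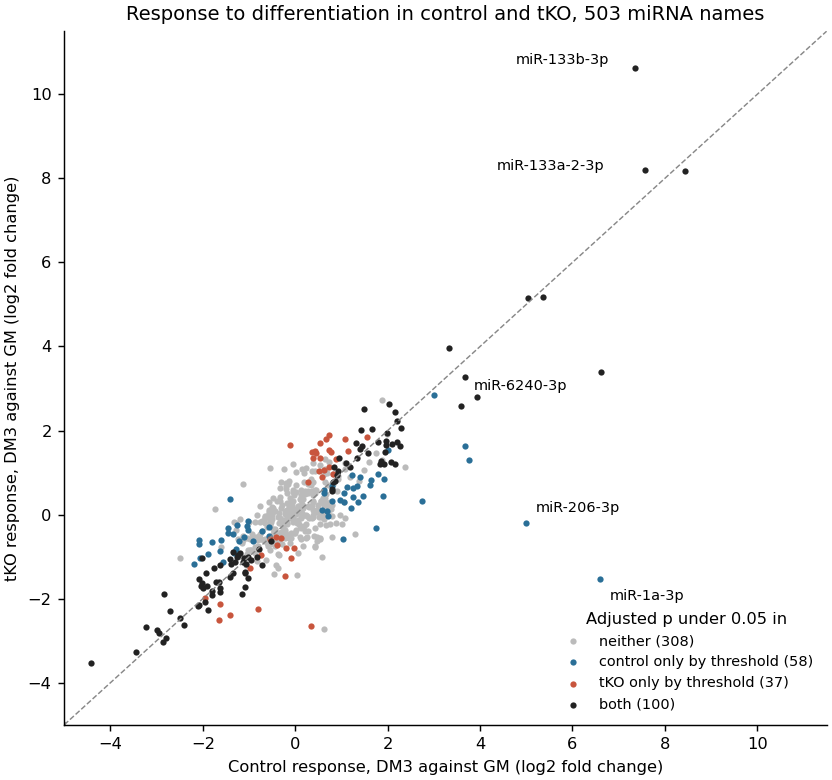
Fitted log2 fold change from GM to DM3 in control cells (horizontal axis) against tKO cells (vertical axis) for 503 miRNA names, coloured by the adjusted p in each genotype, with the line of equal response dashed. Most points lie along that line, miR-206-3p and miR-1a-3p lie far below it, and the fitted value of miR-133b-3p in tKO depends on a prior count because tKO GM had no read of it.

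The precision of the difference limits what a value near 0 shows. The 95% interval of the interaction reached a median of 1.21 (log2) to either side of the estimate over the 499 names for which it could be given. That reach was 0.93 for the 237 names with at least 100 CPM in a group and 1.42 for the others. For 54 of the more abundant names (22.8%) the whole interval lay within 1 of 0, where 1 on the log2 scale is a doubling of the response ratio. Of the remaining abundant names with an interval, all but miR-206-3p had a difference of that size in at least 1 direction within the interval, and a p above the threshold does not show equal responses.

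miR-206-3p, the main product of the deleted family in these cells, rose in every control pair and was at most 95.7 CPM in any tKO library. In control GM it stood at 897 and 1403 CPM in line 1 and at 1102 and 1609 CPM in line 2 (replicates 1 and 2). In control DM3 it stood at 19706 and 37334 CPM in line 1 and at 34634 and 68705 CPM in line 2. Every control DM3 library was above every control GM library. The tKO GM libraries held 0, 7, 24 and 17 reads of miR-206-3p, and the tKO DM3 libraries held 7, 1, 4 and 15 reads.

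The change of miR-206-3p within pairs, in log2(CPM + 1), was 4.46, 4.73, 4.97 and 5.42 in control (mean 4.89 ± 0.41, SD, n = 4). In tKO it was 6.60, -1.89, -1.38 and 0.15 (mean 0.87 ± 3.92, SD, n = 4). The value of 6.60 comes from line 1, replicate 1, where 0 reads in GM stand against 7 reads in the smallest library, and it alone makes the ranges overlap. That library's level of 95.7 CPM rests on a library in which 3 reads are 41.0 CPM. The fitted interaction of miR-206-3p was -5.20 (SE 1.36, 95% interval -8.10 to -2.30), with an unadjusted p of 0.00167 and an adjusted p of 0.574 by edgeR. Without the tKO DM3 library of line 1, replicate 1 it was -6.07 with an adjusted p of 0.00325, and without that whole pair -6.28 with an adjusted p of 0.000657. Over 36 alternatives the value stayed below 0, from -6.46 to -2.59, with adjusted p-values between 1.11e-15 and 1.00.

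The difference of the mean pair changes of miR-206-3p was -4.03 (p = 0.143, two-sided exact permutation over 70 assignments, 0.286 adjusted over 4 miRNAs). Without the tKO pair of line 1, replicate 1 it was -5.94 (exact permutation, p = 0.0286). With a pseudocount of 10 CPM in place of 1 it was -4.32 (exact permutation, p = 0.0286). The miR-206 hairpin is deleted in tKO, and few or no reads remain there. The values of miR-206-3p by edgeR and by permutation therefore restate the deletion and do not test a response in tKO.

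miR-1a-3p was much scarcer. The control GM libraries held 0, 2, 0 and 2 reads, and the control DM3 libraries held 7, 19, 5 and 143 reads. In tKO the reads were 0, 1, 0 and 0 in GM and 0 in each DM3 library. The control DM3 libraries stood at 29.7, 29.4, 14.5 and 61.4 CPM, above the 3-read limit of every tKO library except tKO DM3 line 1 replicate 1, where 3 reads are 41.0 CPM and 3 of these 4 values lie under the limit. The pair changes of miR-1a-3p were 4.94, 4.43, 3.96 and 5.51 in control and 0, -0.66, 0 and 0 in tKO. Their difference was -4.88 (p = 0.0286 by two-sided exact permutation, the lowest value possible with 70 assignments, 0.114 adjusted over 4 miRNAs). Without the tKO pair that holds this library it was -4.93 (exact permutation, p = 0.0286). With assignments only within replicate numbers, a replicate block, exact permutation gave p = 0.0556, the lowest value possible with 36 assignments. limma on the pair differences called miR-1a-3p with an adjusted p of 0.00106. The tKO changes of 0 come from pairs without a read of this deleted miRNA. The limma call and the permutation values therefore restate the deletion and do not test a response in tKO. edgeR gave an adjusted p of 0.635, and its fitted value depends on the prior count because tKO DM3 had no read. miR-206-5p, the other strand of the miR-206 hairpin, had 65 reads in control DM3, 9 in control GM and 0 in both tKO groups, too few for the test.

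**Figure D2:**
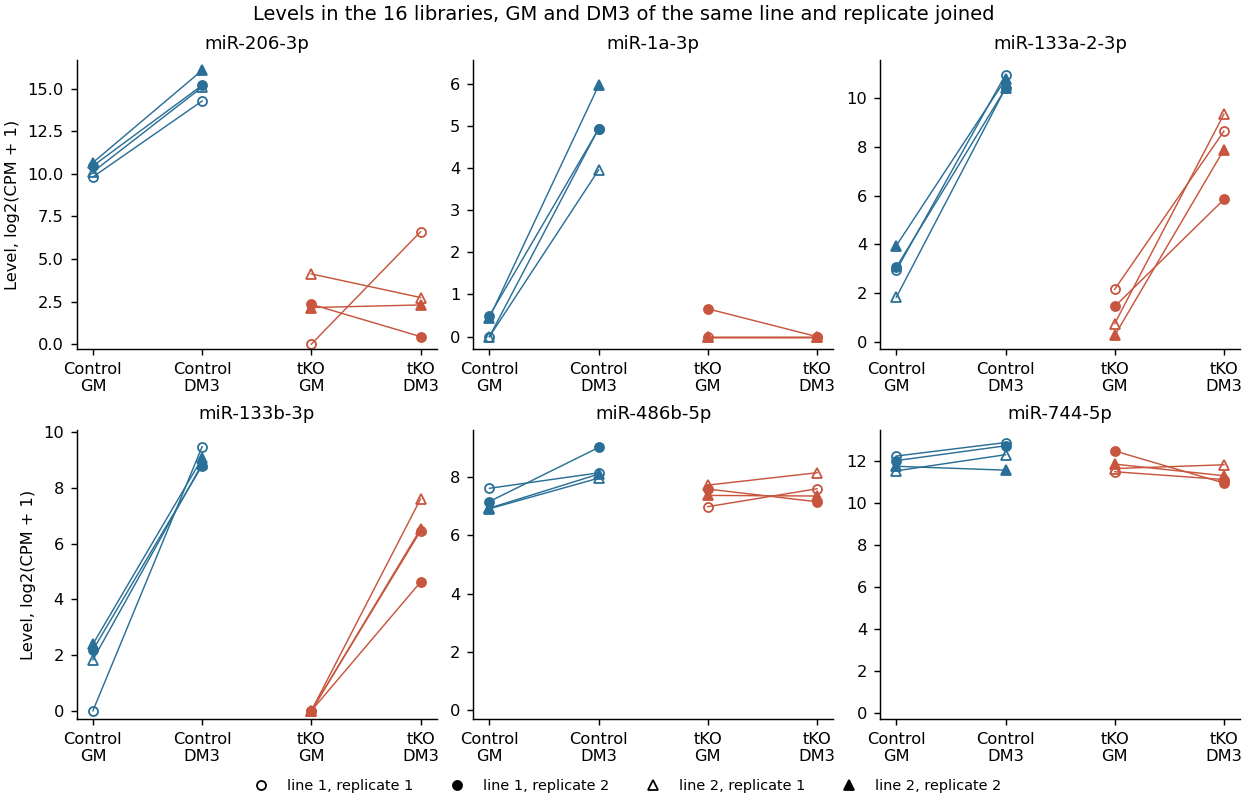
Levels of 6 miRNAs in the 16 libraries on a log2(CPM + 1) axis, with GM and DM3 of the same line and replicate joined (circles line 1, triangles line 2, open replicate 1, filled replicate 2; blue control, red tKO). miR-206-3p rises in all 4 control pairs and in 1 tKO pair by more than 1 unit, and miR-133a-2-3p and miR-133b-3p rise in all 8 pairs from a lower mean starting level in tKO.

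The miR-133 names, the partners of the deleted hairpins, rose in both genotypes. All 4 tested names of the miR-133 list were called up in control and all 4 in tKO, against 78 and 66 of all 503 names. miR-133a-3p and miR-133b-3p repress regulators of proliferation and the serum response factor in muscle. miR-133a-2-3p, the name under which length variants of miR-133a-3p are listed, went from 6.68, 7.34, 2.55 and 14.4 CPM in control GM to 1976, 1336, 1349 and 1732 CPM in control DM3. In tKO, miR-133a-2-3p went from 3.47, 1.74, 0.683 and 0.202 CPM in GM to 397, 56.3, 645 and 235 CPM in DM3. All tKO DM3 libraries were above all GM libraries of either genotype and below all control DM3 libraries.

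Whether the tKO cells induced miR-133a by a larger or a smaller factor was not resolved. The pair changes of miR-133a-2-3p were 8.01, 7.32, 8.57 and 6.82 in control (mean 7.68 ± 0.77, SD, n = 4) and 6.48, 4.39, 8.58 and 7.61 in tKO (mean 6.77 ± 1.80, SD, n = 4). Their means differ by -0.91, while the fitted interaction, which takes group means of counts, was 0.63 (SE 0.97, 95% interval -1.41 to 2.68). The 2 estimates differ in sign, and the interval spans both. The exact mature name miR-133a-3p held few reads. miR-133a-3p stood at 0.102 ± 0.204 CPM in control GM, 8.06 ± 3.85 in control DM3 and 0.944 ± 0.935 in tKO GM (SD, n = 4 each). In tKO DM3 it stood at 41.0, 3.97, 68.0 and 7.33 CPM, from 3, 11, 48 and 28 reads. Its pair differences gave 0.40 (exact permutation, two-sided p = 0.714), and merging it with its length variants turned this to -1.09 (exact permutation, p = 0.343).

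miR-133b-3p, from the transcript of the deleted miR-206, was without a read in every tKO GM library. It stood at 97.3 ± 70.3 CPM in tKO DM3 (SD, n = 4). Summed over the group, tKO DM3 was at least 226-fold higher than the 3 reads that a count of 0 in tKO GM allows. In control, miR-133b-3p went from 2.55 ± 1.83 CPM in GM to 539 ± 122 CPM in DM3 (SD, n = 4 each). Its pair changes were 9.48, 6.64, 7.03 and 6.69 in control and 6.38, 4.61, 7.60 and 6.53 in tKO, so the ranges overlap. They differ by -1.18 (exact permutation, two-sided p = 0.314), or by -0.51 without the control pair of line 1, replicate 1, which had no read in GM. With a pseudocount of 10 CPM this became -2.28 (exact permutation, p = 0.0286). The fitted interaction of 3.26 has the opposite sign and depends on the prior count. miR-133b-5p, the other strand, changed by 6.01, 4.69, 5.57 and 5.69 in control and by 0.00, 3.91, 4.56 and 4.46 in tKO. All 4 tKO pairs of miR-133b-5p lie below all control pairs, and the value of 0.00 belongs to the smallest library. Its fitted interaction was -0.26, with an unadjusted p of 0.502 and an adjusted p of 0.976 by edgeR. That value also depends on the prior count, because tKO GM had no read.

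miR-486, encoded in an intron of the muscle gene Ank1, rose in control cells. The level of miR-486b-5p went from 144 ± 35 to 327 ± 124 CPM in control and from 172 ± 37 to 193 ± 62 CPM in tKO (SD, n = 4 each). The pair changes of miR-486b-5p were 0.53, 1.85, 1.05 and 1.16 in control and 0.61, -0.43, 0.42 and -0.02 in tKO. The rise in control was 1.20 (adjusted p 0.00698 by edgeR), and the fitted change in tKO was 0.16 (adjusted p 0.755). The interaction was -1.04 (SE 0.44, 95% interval -1.96 to -0.11), with an unadjusted p of 0.0302 and an adjusted p of 0.751. miR-486a-5p gave -1.04 (SE 0.44) with an unadjusted p of 0.0279. Nearly the whole sequence is common to both names, so they are not independent. The interaction of miR-486b-5p ranged from -1.72 with replicate 2 libraries alone to -0.34 with replicate 1 libraries alone. miR-499-5p, hosted by a myosin gene, had 12 reads in control GM, 11 in control DM3, 12 in tKO GM and 52 in tKO DM3, too few for the test. The groups differ in depth. Over a group, 3 reads are 0.242 CPM in control GM, 0.844 in control DM3, 0.333 in tKO GM and 0.407 in tKO DM3. The reads of miR-499-5p therefore do not compare as levels.

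Among names of at least 100 CPM in a group, those with the smallest unadjusted p for a lower response in tKO than in control, after miR-206-3p, were miR-744-5p, miR-674-3p, miR-3102-3p, miR-486b-5p, miR-700-3p, miR-423-3p, miR-24-2-5p, miR-151-3p and let-7d-3p. None of them passed the adjusted threshold. All of their estimates stayed below 0 under every alternative in which they could be fitted. The names were chosen for a low value in the same libraries, so this constant sign is a description and adds no support. miR-744-5p, from an intron of the kinase gene Map2k4, changed by 0.64, 0.71, 0.77 and -0.18 in control pairs and by -0.37, -1.53, 0.18 and -0.55 in tKO pairs. The ranges overlap through the control pair of line 2, replicate 2. Its interaction was -1.12 (SE 0.41, 95% interval -1.98 to -0.26), with an unadjusted p of 0.0133 and an adjusted p of 0.751 by edgeR.

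miR-674-3p separated the genotypes by pairs. It changed by -0.45, 0.22, 0.23 and -0.45 in control and by -1.20, -1.30, -1.20 and -0.54 in tKO. Its level fell in tKO from 969 ± 290 CPM to 464 ± 123 CPM (SD, n = 4), a log2 fold change of -1.04 with an adjusted p of 0.00752, and was 938 ± 112 and 885 ± 234 CPM in control (SD, n = 4). The interaction was -0.96 (SE 0.38, 95% interval -1.75 to -0.17), with an unadjusted p of 0.0201 and an adjusted p of 0.751.

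miR-3102-3p rose in both genotypes, by 2.15 in control and 1.20 in tKO (log2, adjusted p 3.4e-05 and 0.00455 by edgeR), and its pair changes did not overlap (1.53 to 2.61 in control, 0.72 to 1.48 in tKO). miR-423-3p, encoded in Nsrp1, also had no overlap, since its lowest control pair was at -0.16 and its highest tKO pair at -0.31, with an interaction of -0.78 (SE 0.35). miR-700-3p was the other name of this ranking whose pairs did not overlap, with an interaction of -0.90 (SE 0.40). The interactions of miR-24-2-5p, miR-151-3p, the product of an intron of Ptk2, and let-7d-3p were -0.75, -0.91 and -0.90, and their pair changes overlapped.

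**Figure D3:**
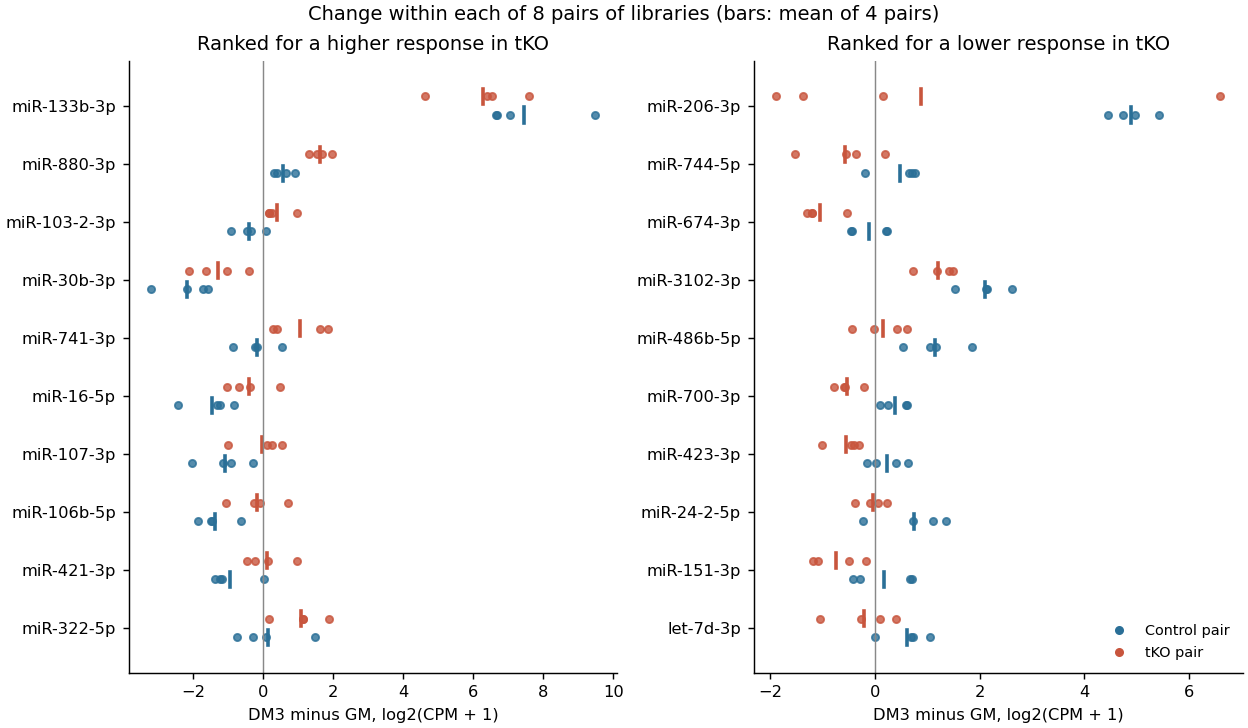
Change from GM to DM3 in log2(CPM + 1) within each of 8 pairs for the names of at least 100 CPM in a group with the smallest unadjusted p for a higher (left) and a lower (right) response in tKO than in control, with points for pairs and bars for the mean of 4. The genotypes do not overlap for miR-880-3p and miR-103-2-3p on the left, nor for miR-674-3p, miR-3102-3p, miR-700-3p and miR-423-3p on the right.

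At the other end of the ranking, miR-880-3p rose more in all tKO pairs than in any control pair. It changed by 0.90, 0.39, 0.66 and 0.32 in control (mean 0.57 ± 0.27, SD, n = 4) and by 1.30, 1.96, 1.54 and 1.69 in tKO (mean 1.62 ± 0.28, SD, n = 4). In levels, miR-880-3p started lower in tKO (80.1 ± 34.9 CPM in GM, against 186 ± 47 in control) and reached 258 ± 142 CPM in DM3, against 270 ± 24 in control (SD, n = 4 each). The interaction was 1.16 (SE 0.55, 95% interval 0.01 to 2.32), with an unadjusted p of 0.0485 and an adjusted p of 0.751 by edgeR. It was 0.46 with replicate 1 libraries alone and 1.60 with replicate 2 libraries alone.

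The other names with the smallest unadjusted p for a higher response in tKO were miR-133b-3p, whose pair difference has the opposite sign (-1.18), miR-103-2-3p, miR-30b-3p, miR-741-3p, miR-16-5p, miR-107-3p, miR-106b-5p, miR-421-3p and miR-322-5p. For these, apart from miR-133b-3p, the unadjusted p lay above 0.05. With the pair block it was under 0.05 for miR-741-3p (0.0101), miR-106b-5p (0.0118), miR-103-2-3p (0.0215), miR-16-5p (0.0246), miR-421-3p (0.0321) and miR-107-3p (0.0387), while the smallest adjusted p over all names was 0.280 by edgeR. miR-16-5p, which represses cyclins, fell in control from 171, 268, 397 and 349 CPM to 67.8, 115, 72.6 and 196 CPM (log2 fold change -1.36, adjusted p 0.0071 by edgeR). In tKO, miR-16-5p went from 421, 182, 344 and 312 CPM to 205, 253, 213 and 242 CPM, a log2 fold change of -0.45 with an adjusted p of 0.379. The interaction of miR-16-5p was 0.91 (SE 0.50, 95% interval -0.14 to 1.95), with an unadjusted p of 0.0857. The name miR-16-1-5p holds more reads of the same mature miRNA (699 against 238 CPM on average). Its control change was -0.87 with an adjusted p of 0.0935 by edgeR, and its interaction was 0.69 with an unadjusted p of 0.217. With the names merged, miR-16-5p had an interaction of 0.85 with an unadjusted p of 0.130. miR-103-2-3p, a length-variant name of miR-103-3p from the Pank introns, changed by -0.47, -0.35, -0.92 and 0.08 in control and by 0.17, 0.97, 0.25 and 0.16 in tKO, without overlap. Its interaction was 0.73 (SE 0.38), with an unadjusted p of 0.0686. The exact mature name miR-103-3p, at a similar level, changed by -0.52, -0.42, -0.84 and -0.05 in control and by -0.20, 0.63, -0.13 and 0.27 in tKO. These ranges overlap, and its interaction was 0.54 with an unadjusted p of 0.158. Reads of the identical copies of miR-103 and of miR-16 cannot be assigned to a copy.

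**Figure D4:**
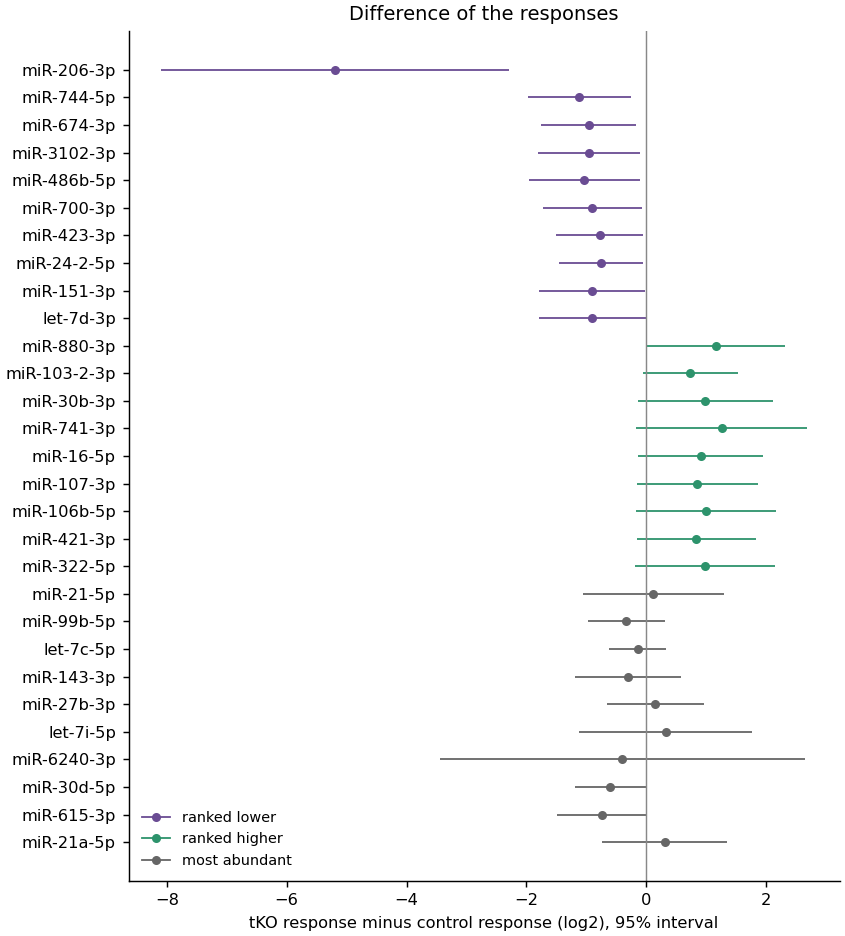
Fitted interaction (tKO response minus control response, log2) with its 95% interval for the ranked names that have an interval and for the 10 most abundant names. The intervals of miR-206-3p and the lower-ranked names end below 0 before adjustment, most of the higher-ranked and abundant names have intervals that include 0, and miR-133b-3p is not drawn because tKO GM had no read of it.

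The seed shared by miR-15, miR-16, miR-195, miR-322 and miR-497, AGCAGCA, marked a group with estimates of one sign. This grouping was chosen after its values were seen, so it is described without a test. All 9 tested names with this seed, which stand for 6 mature miRNAs, had an interaction above 0, with a median of 0.91, against 256 of 503 names above 0 and a median of 0.02 over all tested names. Their summed level went from 2067 ± 326 to 1076 ± 349 CPM in control and from 2067 ± 334 to 1780 ± 86 CPM in tKO (SD, n = 4 each). The summed level changed by -0.94, -1.07, -1.35 and -0.54 in control pairs and by -0.51, 0.22, -0.22 and -0.30 in tKO pairs. All tKO pairs lie above all control pairs, but the nearest values, -0.54 in control and -0.51 in tKO, are close together. miR-15b-5p, which like miR-16-5p targets cell-cycle genes, fell by 1.11 in control (adjusted p 0.00244 by edgeR), and its tKO change was -0.54 (adjusted p 0.118). Its interaction was 0.57 (SE 0.36), with an unadjusted p of 0.127 and an adjusted p of 0.880 by edgeR, and its pair changes overlapped. The median of the group lay between 0.70 and 1.19 over the 36 alternatives.

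The neighbouring seed GCAGCAU, carried by the miR-103 and miR-107 names, gave a similar description. Of 4 tested names, which stand for 2 mature miRNAs, 2 fell in control and 1 in tKO, against 15.9% and 14.1% of all tested names. All 4 interactions were above 0, with a median interaction of 0.79 and a range of medians of 0.40 to 1.08 over the alternatives. Their summed level changed by -0.53, -0.44, -0.94 and -0.01 in control pairs (mean -0.48 ± 0.38, SD, n = 4) and by -0.01, 0.77, -0.01 and 0.21 in tKO pairs (mean 0.24 ± 0.37, SD, n = 4), with an overlap at the edge. By contrast, the let-7 seed GAGGUAG had 9 of 15 names above 0 and a median of 0.06, and the seed AAAGUGC of the miR-17 and miR-106 group had 2 of 4 above 0 and a median of -0.02.

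The X-linked cluster around miR-880 lies at chromosome X, 66776760 to 66839121 (GRCm38.p6, minus strand), and holds miRNAs best known from the testis. It was likewise chosen after its values were seen, as all tested names within 100 kb of miR-880-3p. Of its 25 names 23 had an interaction above 0, with a median of 0.80. The interaction had an unadjusted p under 0.05 by edgeR for 1 of the 25, against 6.56% of all tested names. For 3 of the 25 the pair changes of the genotypes did not overlap, against 5.96%. In control 0 of the 25 changed by edgeR (2 at an unadjusted p under 0.05, 1 called by limma and 0 by DESeq2), against 31.4% of all tested names, and in tKO 7 rose, against 13.1%. With the pair block 17 of them rose in tKO and 3 in control, against 96 and 93 of all 503 tested names. With limma 3 rose in tKO, against 34 of all 503. Leaving out 1 library moved the 7 to 12 (tKO GM line 1 replicate 1), 14 (tKO DM3 line 2 replicate 1), 4 (tKO DM3 line 2 replicate 2), 3 (tKO GM line 2 replicate 1) or 2 (tKO GM line 2 replicate 2, or tKO DM3 line 1 replicate 2). Without the last of these libraries the median interaction was 0.31.

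The cluster as a sum was lower in tKO to begin with. It went from 8497 ± 1359 to 11885 ± 1708 CPM in control and from 4020 ± 2052 to 7635 ± 4466 CPM in tKO (SD, n = 4 each). The sum changed by 0.03, 0.56, 0.89 and 0.47 in control pairs and by 0.45, 1.09, 0.66 and 1.31 in tKO pairs. These ranges overlap, and with replicate 1 libraries alone the median interaction was 0.03. The most abundant member, miR-871-3p, had an interaction of -0.09 (SE 0.64), with fitted changes of 0.81 in control and 0.72 in tKO, and is 1 of the 2 names below 0.

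**Figure D5:**
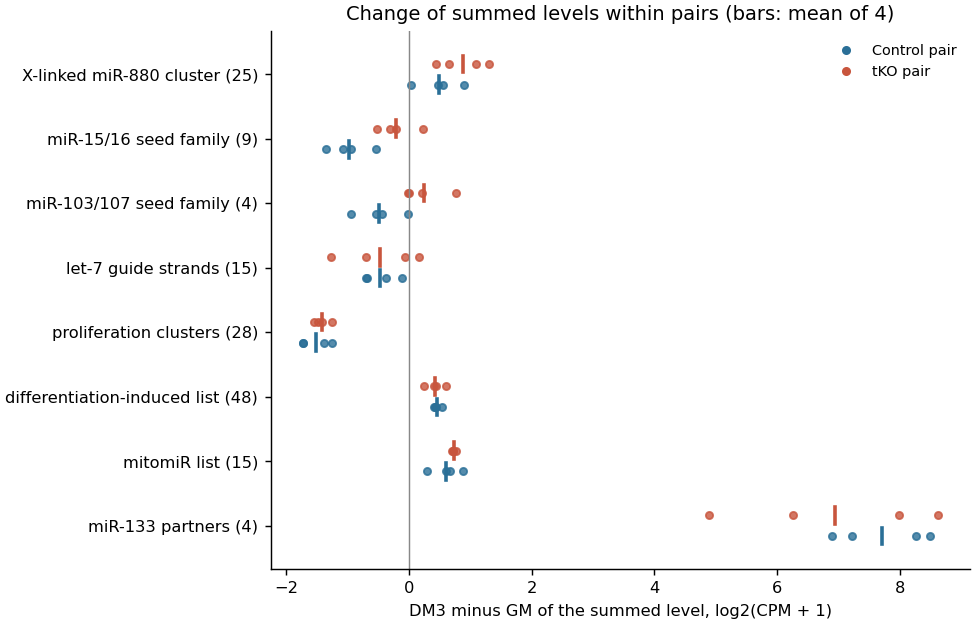
Change from GM to DM3 of the summed level, in log2(CPM + 1), within each of 4 control pairs (blue) and 4 tKO pairs (red) for groups of names, with the number of names in parentheses and bars for the mean of 4. The miR-15/16 seed group is the only group drawn whose genotypes do not overlap, and the summed level of the proliferation-linked list is lower in DM3 in all 8 pairs.

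A list of proliferation-linked miRNAs held the miR-17 to miR-92a cluster and its paralogues, miR-221, miR-222, miR-31, miR-7a and miR-125b-1-3p. Of its 28 tested names 20 fell in control and 18 in tKO, against 15.9% and 14.1% of all tested names. Both genotypes had a fall for 17 of them, against 55 of all 503 tested names. By edgeR 0 of the 28 rose in either genotype, also 0 at an unadjusted p under 0.05, and limma and DESeq2 called 0 up. limma on the pair differences called 4 of them down in tKO, against 10 of all 503 tested names. Their summed level changed by -1.52 ± 0.24 in control pairs and -1.42 ± 0.13 in tKO pairs (SD, n = 4), and the median interaction was 0.04. Its sign is not fixed: it ran from -0.11 to 0.35 over the alternatives and was below 0 in 8 of 37 settings. miR-222-3p, the most abundant of them and a repressor of the cell-cycle inhibitor p27, fell by 1.65 in control and by 1.61 in tKO on the log2 scale, with an interaction of 0.04 (95% interval -0.65 to 0.73). miR-92a-3p fell by 2.09 in control and by 2.15 in tKO on the log2 scale, with an interaction of -0.06 (95% interval -0.78 to 0.67).

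The list of miRNAs induced during myogenic differentiation had a median interaction of 0.12. Of its 48 tested names, 14 rose and 1 fell in control, 13 rose and 3 fell in tKO, and 12 were called in both. Of all tested names 15.5% rose and 15.9% fell in control, 13.1% rose and 14.1% fell in tKO, and 19.9% were called in both. Their summed level changed by 0.45 ± 0.06 in control pairs and by 0.43 ± 0.15 in tKO pairs (SD, n = 4). miR-27b-3p, a repressor of Pax3, rose by 1.41 in control and 1.56 in tKO (adjusted p 0.000713 and 0.000374 by edgeR), with an interaction of 0.15 (95% interval -0.65 to 0.96) that was -0.10 without tKO GM line 1 replicate 2. miR-378a-3p, encoded in Ppargc1b, rose by 1.34 in each genotype, with an interaction of 0.00 (95% interval -0.58 to 0.58). Both intervals end within a doubling of the response ratio on either side.

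The let-7 names, which accumulate in many differentiating cells, summed to 195462 ± 20575 CPM in GM in control and to 196704 ± 44730 CPM in tKO (SD, n = 4). Their sum changed by -0.47 ± 0.29 in control pairs and by -0.46 ± 0.65 in tKO pairs (SD, n = 4). Of 15 tested names 3 fell in control and 3 in tKO, a share near the 15.9% and 14.1% of all tested names. The control count was 1 without Control GM line 2 replicate 1, without any of Control DM3 line 1 replicate 1, line 1 replicate 2 and line 2 replicate 1, or without tKO DM3 line 1 replicate 2, and 8 without Control DM3 line 2 replicate 2. The tKO count was 0 without tKO GM line 2 replicate 1, and 1 without any of tKO GM line 1 replicate 1, tKO GM line 2 replicate 2, tKO DM3 line 1 replicate 1 and Control DM3 line 1 replicate 2. let-7c-5p had the narrowest interval among the 10 most abundant names, with an interaction of -0.14 (95% interval -0.61 to 0.33).

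The remaining abundant names gave estimates on both sides of 0. miR-21-5p, the most abundant name at 115604 CPM on average, had an interaction of 0.12 (SE 0.56), which ran from -0.16 (without tKO DM3 line 1 replicate 2) to 0.48 (without tKO GM line 1 replicate 1) when 1 library was left out. It was -0.82 with replicate 1 libraries alone and 1.00 with replicate 2 libraries alone. Its mature form miR-21a-5p had an interaction of 0.30 (SE 0.50). miR-99b-5p and miR-143-3p, a miRNA of mesenchymal and smooth muscle cells, had -0.33 (SE 0.30) and -0.31 (SE 0.42). miR-30d-5p changed by 0.22, 0.33, 0.35 and -0.10 in control and by -0.51, -0.61, -0.18 and -0.26 in tKO, without overlap, with an interaction of -0.60 (SE 0.28) and an unadjusted p of 0.0491. miR-615-3p, encoded within Hoxc5, had an interaction of -0.74 (SE 0.35) and an unadjusted p of 0.0493, and its pair changes overlapped. The fitted change of miR-6240-3p was 3.66 in control and 3.26 in tKO on the log2 scale, with a wide interval of the difference (-3.45 to 2.65). Its level in tKO DM3 was 59150 ± 97091.5 CPM (SD, n = 4). miR-6240-3p changed by 2.74, 5.35, 3.98 and 1.98 in control pairs and by 5.30, -0.09, 2.53 and 0.56 in tKO pairs. The tKO value of 5.30 belongs to the pair that holds the smallest library. With the pair block its tKO change was 1.91 with an adjusted p of 0.240 by edgeR, so that the call in tKO was lost. The interaction of miR-6240-3p was -0.40, and -2.88 without tKO DM3 line 1 replicate 1, and it turned to 0.51 without Control DM3 line 1 replicate 2 and to 0.13 without tKO GM line 1 replicate 2. Its part in the 2 DM3 libraries with the highest shares of miR-6240 and miR-6236 is given above, and what those reads contribute to the other values was not tested beyond leaving the libraries out.

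Among names of at least 100 CPM in a group, the largest falls in control were also called in tKO. miR-7a-5p fell by 2.71 in control and 2.29 in tKO, miR-7a-2-5p, the name of its length variants, by 2.51 and 2.46, and miR-125b-1-3p by 2.41 and 2.63 on the log2 scale. Their interactions were 0.42, 0.05 and -0.22, with standard errors of 0.61, 0.64 and 0.53. miR-712-5p, which derives from the ribosomal precursor RNA, rose by 3.00 in control (adjusted p 0.0363), and its fitted change in tKO was 2.85 (adjusted p 0.0515). With the pair block the control change of miR-712-5p was 2.73 with an adjusted p of 0.0830 by edgeR. Its interaction of -0.15 ran from -2.61 (without tKO DM3 line 1 replicate 1) to 0.49 when 1 library was left out. It was 2.07 with replicate 1 libraries alone and -3.58 with replicate 2 libraries alone.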

How the data were processed

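Small RNA was sequenced from total RNA of C2C12 cells after gel selection, per the labels' protocols. The submitters' processing notes name cutadapt 1.15, STAR 2.5.4 and build mm10, without their roles. The deposited tables are unitas miRNA tables for mouse, per the file headers. The unitas version and miRBase release are not given in the sources used here. The deposited values are expected counts, estimated read numbers that need not be whole, without normalization.

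Expected counts of sequences of 18 to 25 nt without a mismatch were summed per listed name and rounded. Listed names were kept as they are. Some hold length variants of another name (185 of 1502 names, 22.8% of the counted reads). Names were filtered with filterByExpr (smallest count 10), scaled by TMM and tested with edgeR 4.0.16 in R 4.3.3 (robust quasi-likelihood F test, 1 coefficient per group, Benjamini-Hochberg threshold 0.05). Counting precision ran from 0.546 to 41.0 CPM per library for 3 reads, since the reads carry no molecular identifiers. The biological coefficient of variation by edgeR was 0.378. For miR-206-3p, miR-1a-3p, miR-133a-3p and miR-133b-3p, pair differences in log2(CPM + 1) were compared by two-sided exact permutation over 70 assignments. limma 3.58.1 and DESeq2 1.42.0 served as alternatives, with other scalings, filters, read sets, blocks and left-out libraries. The edgeR script was tested on simulated data.

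The labels give replicate numbers. The 8 pairs of the same line and replicate had correlations of deviations from the group means of 0.106 to 0.569 over 237 names. Their mean was 0.348. Within a genotype, the mean was 0.189 for the same line with the other replicate number. It was -0.131 for the other line with the same number. Pairs were formed by the labels, and how much of the correlation belongs to the line was not tested.

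Names were chosen for the text by rule: the miR-1, miR-206, miR-133, miR-486 and miR-499 names, the 10 of lowest unadjusted p in each direction with at least 100 CPM in a group, the 10 most abundant, the 5 largest control responses in each direction with at least 100 CPM, and abundant examples of each list. The members, lists and rules were chosen with earlier results of these data known. Of 48 names, 31 had a mature sequence in the RefSeq table (GRCm38.p6). P-values measure the spread between libraries, with 2 lines per genotype.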

Additional observations from a re-analysis of the deposited data

Results flagged for a closer look

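Among 62 groups of 4 values examined, 11 had 1 value far from the other 3 by Dixon's gap test. Chance gives about 1 in 20 for independent values with a normal spread. The groups share libraries, and many names were ranked on the same data, so the 11 are not read as an excess. Of the 11, 3 are measures of the smallest library, tKO DM3 line 1 replicate 1. It had 58.62% of its reads counted (others 84.23% to 86.98%), 35.37% listed under miR-6240 or miR-6236 (others 1.6% to 3.228%) and 18.92% under 18 nt (others 2.957% to 4.799%). Control DM3 line 1 replicate 2 had 17.07% listed under miR-6240 or miR-6236 (others 4.853% to 5.101%).

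The other 7 are changes within pairs, in log2(CPM + 1). For miR-133b-3p the control pair of line 1 replicate 1 changed by 9.478, with the others at 6.640 to 7.033. For miR-133b-5p the tKO pair of line 1 replicate 1 changed by 0.000, with the others at 3.914 to 4.565, and this pair holds the smallest library. For miR-1a-3p the tKO pair of line 1 replicate 2 changed by -0.659, with the others at 0.000, a difference made by 1 read. The tKO pair of line 1 replicate 2 changed by 0.972 for miR-103-2-3p, with the others at 0.163 to 0.253. The control pair of line 2 replicate 2 stood apart for miR-421-3p (0.034, others -1.376 to -1.170) and for miR-744-5p (-0.184, others 0.642 to 0.768). The tKO pair of line 2 replicate 2 changed by -0.539 for miR-674-3p, with the others at -1.296 to -1.198.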

How the results depend on the processing

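For the interaction the count of called names was 0 in 28 of 36 alternatives. It was 3 without a filter (miR-206-3p, miR-1a-1-3p and miR-696-3p), and 1 with limma on pair differences and with merged names and the pair block (miR-1a-3p each). It was also 1 (miR-206-3p) with replicates summed per line, with replicate 2 libraries alone, without the tKO pair of line 1 replicate 1, and without the 2 pairs with the highest miR-6240 and miR-6236 share. Leaving out 1 library gave 0 to 1, the 1 being miR-206-3p without tKO DM3 line 1 replicate 1. Apart from miR-696-3p, the names called in these alternatives belong to the deleted family, so their calls restate the deletion.

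Control response calls, 158 as reported, were 87 with at least 100 CPM in a group, 81 and 97 with replicate 1 or 2 alone, 249 with all lengths and mismatches, 66 after thinning to the smallest library, 104 without those 2 pairs, and 110 to 172 leaving out 1 library. tKO calls, 137 as reported, were 86 with at least 100 CPM, 44 with limma, 85 with replicate 1 alone, 69 after thinning and 108 to 143 leaving out 1 library. Fewer names are tested at 100 CPM, and fewer libraries or reads enter with 1 replicate, thinning or left-out pairs. The cause of the other changes was not tested.

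The replicate block gave 0 interaction, 173 control and 151 tKO calls, and the pair block 0 (smallest adjusted p 0.280 by edgeR), 186 and 175. Neither moved a count of adjusted calls over all names by over 1.5 times, but the pair block raised the interaction names at an unadjusted p under 0.05 from 33 to 60.

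Among the miR-133 and ranked names, the miR-133a-2-3p interaction was -0.91 with limma, -0.76 with replicate 1 alone, -0.35 with all lengths and mismatches, -0.78 after thinning, and -0.10 to 1.22 leaving out 1 library, where it was -0.01 without tKO DM3 line 2 replicate 1. miR-133b-3p was -1.18 with limma, -0.12 with all lengths and mismatches and -2.57 after thinning. miR-133b-5p was 0.39 with replicates summed, 0.53 with replicate 2 alone, 0.11 without the 2 pairs, and -1.46 to 0.064 leaving out 1 library. miR-133a-3p was 0.073 with total counts, 0.067 with merged names, 0.40 with limma, 0.15 with all lengths and mismatches, 0.28 without the tKO pair of line 1 replicate 1, and -1.91 to 0.46 leaving out 1 library. Among the latter, it was 0.41, 0.46, 0.43, 0.34 and 0.38 in turn without tKO GM line 1 replicate 1, Control GM line 2 replicate 2, Control DM3 line 2 replicate 2, tKO DM3 line 1 replicate 2 and tKO DM3 line 2 replicate 2. miR-30b-3p was -0.081 with replicate 1 alone and -0.19 after thinning. The miR-133a-3p pair difference was -1.09 with merged names and ran from -0.26 (without the tKO pair of line 2 replicate 1) to 0.98 leaving out 1 pair. The cause was not tested. Over all named miRNAs, 90 of 1456 interaction values under alternatives had the other sign, in 19 of 41 names. The names not given here are abundant names or large responders, such as miR-21-5p and miR-92a-3p.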

Other observations

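Over all 16 libraries the blood markers miR-451a and miR-223-3p had 2 and 1 reads, and miR-142-3p and miR-142a-3p had 8 and 2. miR-150-5p had more, with 55 reads in control GM, 7 in control DM3, 45 in tKO GM and 17 in tKO DM3. These reads come from groups of different depth and do not compare as levels. The endothelial marker miR-126a-3p had 235 reads in control GM, 39 in control DM3, 46 in tKO GM and 42 in tKO DM3 (18.9 CPM over control GM and 5.11 CPM over tKO GM), with an interaction of 1.09 and a control change of -1.19 (adjusted p 0.0628 by edgeR). Of the epithelial list 2 of 7 names were tested. Of these, miR-200b-3p stood at 3.51 CPM over control GM, 1.12 over control DM3, 12.4 over tKO GM and 8.00 over tKO DM3, with an interaction of 0.84 (SE 1.03). The other tested name had an interaction of 0.52. Over the same groups in turn, miR-200c-3p stood at 6.57, 3.09, 7.60 and 4.41 CPM. miR-205-5p was lower in tKO, at 6.77, 2.53, 4.22 and 1.63 CPM. The part of such cells in the results above was not tested. The tested blood names were miR-155-5p and miR-146a-5p, which many cell types express. miR-155-5p fell by 1.28 in control (log2, adjusted p 0.0144 by edgeR), with a tKO change of -0.82 (adjusted p 0.112) and an interaction of 0.47 (SE 0.53). The neural list had 5 tested names, 2 with an interaction above 0 and 3 below, from -0.23 for its most abundant name miR-128-3p to 1.66 for miR-9-1-5p, with a median of -0.12.

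All 6 tested names of the fat and smooth muscle list, among them miR-143-3p and miR-145a-5p, had an interaction below 0, with a median of -0.28. Their summed level changed by 0.03 ± 0.10 in control pairs and by -0.34 ± 0.66 in tKO pairs (SD, n = 4), with the lowest tKO value, -1.18, in the pair of line 1 replicate 1. A median above 0 was reached in 1 of 37 settings.

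Of published mitochondria-enriched miRNAs, 15 names were tested, among them the deleted miR-1a-3p. The median interaction was 0.13, with 8 names above 0 and 7 below. By edgeR 3 of the 15, miR-1a-3p included, had a lower response in tKO at an unadjusted p under 0.05, against 25 of all 503. The summed level of the 15 rose by 0.29, 0.87, 0.66 and 0.61 in control pairs and by 0.72, 0.76, 0.71 and 0.72 in tKO pairs. The tKO pairs thus lay within a narrow band inside the control range.

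Several names outside the rule were chosen after their values were seen. miR-9-1-5p, from a family known in neural cells, had an interaction of 1.66 (SE 0.56), with an unadjusted p of 0.00791 and an adjusted p of 0.635 by edgeR. Its level was low in tKO GM, at 5.01 ± 1.27 CPM against 79.3 ± 16.6 CPM in control GM (SD, n = 4), and its pair changes overlapped.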
